A study of Mus musculus with 12 samples.

Results

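The genes described here are the interferon-induced GTPases and antiviral families of the mouse, picked by gene name. They are all names that begin with Ifi, Oas, Gbp, Irgm, Iigp or Tgtp, together with Isg15, Isg20, Mx1, Mx2, Igtp, Rsad2, Usp18 and Cmpk2. The rule found 69 of the 25655 genes in the table, and 61 of them reached 1 CPM (a read count scaled to the depth of its library) or more in 4 or more of the 12 libraries. These 61 are described by family. The 8 that stayed below were Ifi206, Ifi213, Ifi27l2b, Ifitm7, Oas1d, Oas1e, Oas1f and Oas1h. All 61 also passed the separate filter on low counts and were tested. Of the 8, Ifi206 passed that filter too and was tested, but it is not among the 61.

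All libraries came from the synovial membrane and fat pad of SKG/Jcl mice, a strain with a mutation of the T cell signalling kinase Zap70 that is prone to arthritis. Animals called Sedentary were given PBS. Those called Mannan-only were given mannan (20 mg), a polysaccharide of yeast walls that sets off arthritis in this strain. Those called AREx had mannan at 20 mg together with low-intensity running on a treadmill. Each of the 3 groups had 4 libraries. All groups carry the SKG background, so no library stands for a mouse without it. The labels do not give age, and do not say whether the 4 libraries of a group came from separate animals, so p-values measure the spread between libraries, which may be technical.

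Interferons are secreted proteins that tell neighbouring cells of infection or inflammation. Type I interferons act through the receptor Ifnar1 and Ifnar2, and their signal reaches a DNA element called the ISRE. Interferon gamma, the product of Ifng made mainly by T and NK cells, acts through Ifngr1 and Ifngr2, and its signal reaches an element called the GAS. Many of the genes below answer to both. The IRG and GBP proteins are GTPases that attack the compartments in which microbes live inside cells, the OAS enzymes sense double-stranded RNA, the IFIT proteins bind foreign RNA, the IFITM proteins hinder viral entry, and the PYHIN proteins (the mouse Ifi200 cluster) include sensors of DNA.

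Promoter stretches show how members of one family share these elements. Of the 61 genes, 46 had a promoter in the RefSeq table for GRCm38.p6, a build other than that of the counts (GRCm39), covering 250 bases before to 50 bases after the start of the gene. A pair of letter patterns was searched on both strands, with overlapping matches counted. The ISRE core was read as GAAA, any 2 bases and again GAAA, and the GAS core as TTC, any 3 bases and GAA. The ISRE core was found in 30 of the 46 members (65.2%) and in 3.99% of the 27025 genes of the table. The GAS core was found in 13 (28.3%) and in 9.55% of all genes. Both stood in 8 members (17.4%) and in 0.614% of all genes. A match is only a match of letters.

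The following stretches are from the IRG family, where the 2 cores stood side by side. Capitals mark the GAS core, then the ISRE core.
Igtp: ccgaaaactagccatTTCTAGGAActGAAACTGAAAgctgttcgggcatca
Irgm2: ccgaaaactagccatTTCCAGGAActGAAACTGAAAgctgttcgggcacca
Tgtp1: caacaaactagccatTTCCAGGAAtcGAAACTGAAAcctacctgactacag
Tgtp2: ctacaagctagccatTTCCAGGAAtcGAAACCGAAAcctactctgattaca

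These lie at chr11:58199496-58199546 on the plus strand, chr11:58214887-58214937 on the plus strand, chr11:48992299-48992349 on the minus strand and chr11:49064258-49064308 on the minus strand. In all 4 the first base of the GAS core lay 11 bases before the first base of the ISRE core. This spacing was read off these 4 stretches, and no other spacing was counted, so that these members hold it was fixed in advance. It was found in 5 of the 27025 genes (0.0185%), and 4 of those 5 were these members. Of the 6 IRG members with a promoter, 5 had an ISRE core and 4 had a GAS core. Ifi47 had neither in this window. Tgtp1 and Tgtp2 are near-identical copies, so their match is partly 1 sequence seen again. The stretches of Igtp and Irgm2 are nearly the same as well, so the 4 matches are not independent of each other.

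The next stretches are from 4 other families, and from 2 genes that did not rise although they hold an ISRE core. Capitals mark ISRE cores, except the first capitals of Oas1a, which mark a GAS core.
Isg15: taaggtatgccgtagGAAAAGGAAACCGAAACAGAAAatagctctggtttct
Oas1a: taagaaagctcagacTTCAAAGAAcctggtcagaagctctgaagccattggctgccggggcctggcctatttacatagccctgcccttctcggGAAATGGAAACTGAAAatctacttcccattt
Oas1g: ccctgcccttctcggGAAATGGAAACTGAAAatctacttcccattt
Ifit1: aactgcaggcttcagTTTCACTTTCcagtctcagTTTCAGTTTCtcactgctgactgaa
Gbp2: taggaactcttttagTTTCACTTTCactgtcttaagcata
Oas1c: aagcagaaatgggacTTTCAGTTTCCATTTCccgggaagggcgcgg
Ifi205: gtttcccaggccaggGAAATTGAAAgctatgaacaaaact

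Isg15 (chr4:156200860-156200911, minus strand) held 3 overlapping ISRE cores, which began 78, 72 and 66 bases before the start of the gene. Oas1a (chr5:120907515-120907638, minus strand) and Oas1g (chr5:120887601-120887646, minus strand) shared the same stretch around their ISRE cores, and in Ifit1 (chr19:34640770-34640828, plus strand) 2 cores lay on the other strand. Gbp2 lies at chr3:142620589-142620628 on the plus strand, and its core lay on the other strand too. Oas1c (chr5:120812598-120812643) and Ifi205 (chr1:174031865-174031904), both on the minus strand, held ISRE cores too. Those of Oas1c lay on the strand opposite to the gene. Ifi205 had a further core after its start, not shown. By family the ISRE core was found in 5 of 5 GBP, 5 of 6 IFIT, 6 of 8 PYHIN, 4 of 6 OAS and 2 of 6 IFITM promoters, and in neither Ifi44 nor Ifi44l. Ifit1 and Ifit1bl2 lie on opposite strands with overlapping promoter windows, and their ISRE cores are the same bases. That DNA was counted for both genes, here and in the 30 of 46 members.

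**Figure D1:**
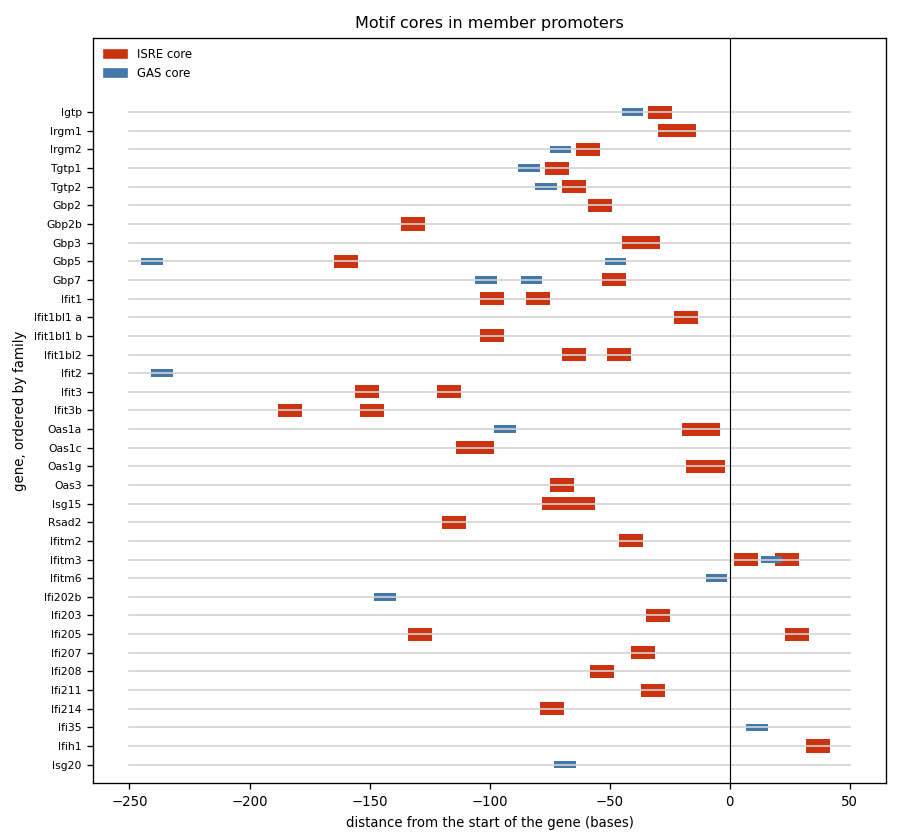
Positions of ISRE cores (wide red bars) and GAS cores (narrow blue bars) in the promoters of described members that hold either. The horizontal axis is the distance from the start of the gene in bases, and each line is 1 promoter, from 250 bases before to 50 after the start. Promoters without either core are not drawn, and a gene with cores in 2 promoters (Ifit1bl1) has 2 lines. Igtp, Irgm2, Tgtp1 and Tgtp2 have a GAS core 11 bases before an ISRE core.

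Libraries held between 11803882 and 17650156 counts, and the 61 genes took 0.205% to 0.719% of them. AREx replicates 1 and 4 held more counts in short genes than the rest, with log2 ratios of 0.86 and 0.57 in the shortest quintile of genes, against -0.03 to 0.21 in the other libraries. They held fewer counts in long genes, with ratios of -0.63 and -0.43 in the longest quintile, against -0.22 to 0.04 in the other libraries. AREx replicates 2 and 4 held skeletal muscle markers at summed levels of 2354 and 2611 CPM, against 8.73 to 247 CPM in the other 10 libraries. Markers of the labelled tissue were present in every library, with adipocyte markers at 1764 to 47326 CPM in sum and synovial fibroblast markers at 10715 to 51059 CPM.

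With mannan, most of the families rose together. In Mannan-only against Sedentary, 52 of the 61 genes rose, 3 fell (Ifi27l2a, Ifi27 and Ifi205) and 6 did not pass the test (Gbp11, Ifit2, Ifitm10, Oas1c, Ifi208 and Ifi35), by edgeR's quasi-likelihood test at an adjusted p under 0.05 over all 14278 genes tested. Over all genes tested, 26.3% rose and 25.2% fell. Ifi214, Ifi208, Ifitm5, Ifit1bl1 and Ifit1bl2 stayed below 1 CPM in every Sedentary library. Gbp8, Oas3, Oas1g and Ifitm10 reached it in only some of them. These genes met the 1 CPM rule through their mannan libraries, so the rule favoured a rise for them. All but Ifi208 and Ifitm10 are among the 52. The median log2 fold change of the 61 was 1.75, beside 0.01 over all genes. The Mannan-only libraries were all above the Sedentary libraries for 48 members and all below for 3, beside 32.2% and 31.6% of all genes. In bulk tissue, more cells of a type and more RNA per cell cannot be told apart. Markers of other cells moved in the same comparison. All 15 T and NK cell markers tested rose, with the group sums rising from between 9.77 and 20.5 CPM to between 97.7 and 138 CPM, and all 10 neutrophil markers rose, from between 21.9 and 116 CPM to between 3048 and 6269 CPM. Of 17 monocyte and macrophage markers 11 rose, 3 fell and 3 did not pass, and their sum went from between 1709 and 2759 CPM to between 3479 and 4401 CPM. Of 11 synovial fibroblast markers 3 rose and 2 fell, and of 10 endothelial markers 0 rose and 3 fell. All 12 adipocyte markers fell, from between 25331 and 47326 CPM to between 1764 and 3657 CPM. Their part in the results was not tested.

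**Figure D2:**
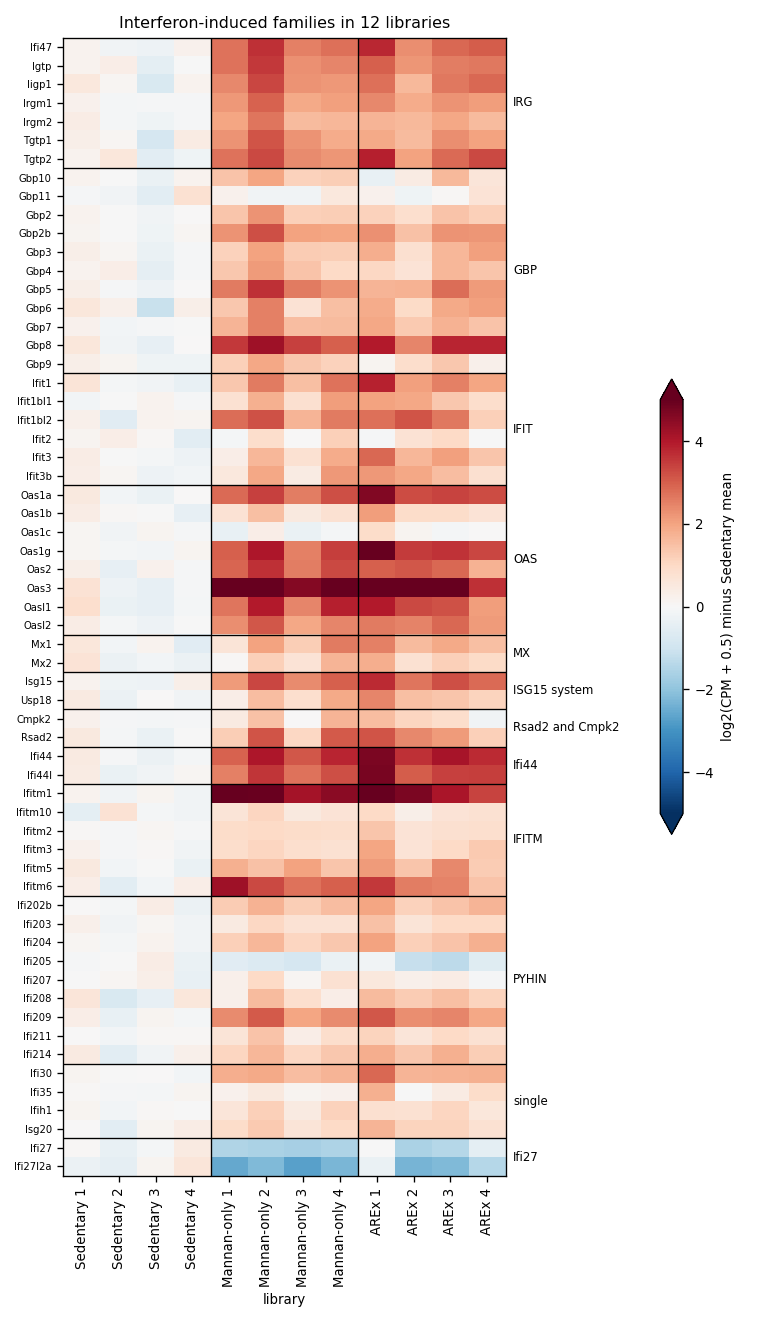
Heat map of the 61 described genes (rows, grouped by family) in the 12 libraries (columns, numbered by replicate). Colour is log2(CPM + 0.5) minus the mean of the 4 Sedentary libraries, with colours saturated beyond 5 in either direction. Rows are red in the mannan libraries for nearly all families, and blue for Ifi27 and Ifi27l2a, with AREx replicate 1 near white for both.

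The IRG family rose in all 7 members, with a median log2 fold change of 2.56. Iigp1, a GTPase that acts on the vacuoles of intracellular parasites, had the highest level. It stood at 78.2, 57.8, 31.7 and 62.2 CPM in the Sedentary libraries, at 289, 557, 261 and 248 CPM in Mannan-only, and at 375, 167, 340 and 401 CPM in AREx. The groups did not overlap in either comparison with Sedentary, and Mannan-only replicate 2 was the highest library. Its log2 fold change was 2.56 (SE 0.36, adjusted p = 8.74e-05). Ifi47 moved most. It gave 18.8, 14.8, 13.9 and 19.5 CPM in Sedentary, 113, 215, 98.3 and 114 in Mannan-only and 230, 83.9, 125 and 140 in AREx, with no overlap with Sedentary. Its mean went from 16.8 ± 2.79 to 135 ± 53.7 CPM (mean ± SD, n = 4 libraries each), a log2 fold change of 3.01 (SE 0.33, edgeR adjusted p = 1.16e-05). The other 5 were close to each other in size of change, from 2.03 (SE 0.23) for Irgm2 to 2.82 (SE 0.29) for Igtp. Irgm1, which guards the cell's own membranes against these GTPases, rose by 2.34 (SE 0.22). Tgtp2 stood at 19.6, 26.2, 11.9 and 15.1 CPM in Sedentary, at 117, 175, 91.7 and 81.4 CPM in Mannan-only and at 262, 71.4, 126 and 175 CPM in AREx, with AREx replicate 1 highest. Igtp and Irgm2 overlap on the same strand, and Tgtp1 and Tgtp2 are near-identical, so reads of these pairs could have been divided between the copies.

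The GBP family, also GTPases, rose in 10 of 11 members with a median of 1.57. Gbp2 had the highest level of them. Its Sedentary libraries gave 95, 82.4, 74.7 and 85.7 CPM, the Mannan-only libraries 220, 397, 193 and 196, and the AREx libraries 188, 152, 228 and 192. Every mannan library was above every Sedentary library, and the log2 fold change was 1.57 (SE 0.23, edgeR adjusted p = 9.78e-05). Gbp8 changed most, from 2.43, 1.23, 0.964 and 1.48 CPM to 22.4, 36.4, 20.2 and 15 CPM, and 29.9, 10.2, 26.7 and 26.7 CPM in AREx. The fold change of Gbp8 was 3.91 on the log2 scale (SE 0.42, edgeR adjusted p = 9.71e-06). Between these, Gbp5, a GBP tied to inflammasome activity, rose by 2.91 (SE 0.34) and Gbp2b by 2.47 (SE 0.29). Gbp3, Gbp4, Gbp6, Gbp7, Gbp9 and Gbp10 rose by 1.43 to 1.90. Gbp8 overlaps Gbp9 and Gbp4 on the same strand, and Gbp6 and Gbp10 overlap Gm43302, so their reads could have been shared. Gbp11 did not pass, at 0.05 (SE 0.30).

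The OAS family, enzymes that make a messenger for RNase L, and the related Oasl proteins, rose in 7 of 8 members, with a median of 3.16. Oas3 rose more than any other described member, from 2.25, 0.869, 0.742 and 1.09 CPM to 58.3, 122, 39.8 and 84.5 CPM. AREx gave 70.8, 86.2, 62.4 and 20.3 CPM. The log2 fold change was 5.89 (SE 0.57, edgeR adjusted p = 4.66e-06), and neither mannan group overlapped Sedentary. Oasl2 was the most abundant by CPM and rose by 2.52 (SE 0.25). Its libraries gave 21.7, 15.8, 13.9 and 16.4 CPM in Sedentary, 86.1, 146, 65.6 and 93.3 in Mannan-only and 105, 94.8, 126 and 74 in AREx. Oas2 rose by 3.19 (SE 0.33), Oas1a by 3.14 (SE 0.36), Oas1g by 3.89 (SE 0.50) and Oasl1 by 3.43 (SE 0.50). Oas1b rose by 0.97 (SE 0.35, edgeR adjusted p = 0.0354), a call lost without any of 5 libraries, Sedentary 2, 3 or 4 and Mannan-only 2 or 4. Oas1c stayed at 3.93 ± 0.436 against 3.63 ± 1.01 CPM and did not pass. Oas1a and Oas1g are close copies, so their split is uncertain.

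The IFIT family rose in 5 of 6 members, median 1.73. Ifit1, which binds RNA that lacks the host's cap mark, gave 15.4, 9.12, 8.75 and 7.48 CPM in Sedentary, 25.6, 61.9, 28.6 and 67.4 in Mannan-only, and 149, 42.5, 59.3 and 40.4 in AREx. Mannan-only replicates 2 and 4 stood over 1 and 3, and AREx replicate 1 stood over all other libraries. The log2 fold change of Ifit1 was 2.16 (SE 0.47, edgeR adjusted p = 0.00211). Ifit1bl2 changed most at 3.30 (SE 0.51). It stood at 0.866, 0.29, 0.816 and 0.779 CPM in Sedentary, at 7.58, 10.1, 3.28 and 6.55 CPM in Mannan-only and at 7.35, 9.68, 6.63 and 2.17 CPM in AREx, with no overlap. Ifit3 rose by 1.30 (SE 0.38) and Ifit3b, a near-identical copy, by 1.5 (SE 0.42). Ifit2 had 0.58 (SE 0.33) and did not pass.

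Mx1 belongs to the dynamin-like GTPases. It gave 6.7, 3.91, 4.97 and 2.8 CPM in Sedentary, 7.2, 19.4, 10.9 and 29 in Mannan-only, and 27.8, 14.3, 17.7 and 13.2 in AREx. Mx2 rose with a log2 fold change of 1.06 (SE 0.40, edgeR adjusted p = 0.04), a call lost without any of the same 5 libraries as for Oas1b. Isg15 encodes a small modifier joined to proteins, and Usp18 is the protease that removes it and restrains type I interferon signals. Isg15 stood at 4.62, 3.47, 3.34 and 5.14 CPM, then at 19.8, 45.7, 23.2 and 35.8 in Mannan-only and 59.5, 29, 41.7 and 32.4 in AREx. Its log2 fold change was 2.90 (SE 0.32, edgeR adjusted p = 1.1e-05). Usp18 rose by 1.30 (SE 0.37), at 9.18, 5.21, 6.6 and 5.77 CPM against 8.34, 19.9, 12.2 and 25.7, so that Sedentary and Mannan-only overlapped. In AREx Usp18 gave 37.6, 19.5, 18.1 and 14.8 CPM, and did not overlap with Sedentary.

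Rsad2, which encodes the antiviral enzyme viperin, gave 13.6, 8.9, 7.42 and 9.35 CPM in Sedentary and 23.1, 87.8, 20.1 and 85 CPM in Mannan-only. AREx gave 88.3, 52.1, 43.4 and 22.7 CPM. The log2 fold change was 2.45 (SE 0.54, edgeR adjusted p = 0.00207). Its neighbour Cmpk2, a nucleotide kinase, rose by 1.09 (SE 0.39), a call lost without any of 6 libraries, Sedentary 1, 2, 3 or 4 and Mannan-only 2 or 4. Ifi44 rose by 3.67 (SE 0.33) and Ifi44l by 3.19 (SE 0.40). Ifi44 rose from 6.07, 4.2, 3.41 and 4.05 CPM to 37.3, 80.3, 41.3 and 68.1 CPM, and reached 127, 60.4, 83.4 and 64.6 CPM in AREx.

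The IFITM family rose in 5 of 6 members with a median of 1.62, Ifitm10 not passing. Ifitm3 was the most abundant by CPM at 284, 235, 252 and 214 CPM, then 457, 516, 437 and 415, and 959, 391, 486 and 606 in AREx. By RPKM, which allows for length, Ifitm3 stood at 586 ± 51.2 in Mannan-only, the highest level of any described member there. Ifitm1 changed most, from 4.51, 3.4, 4.3 and 3.43 CPM to 172, 135, 78.8 and 100 CPM, and 211, 115, 73 and 45.4 CPM in AREx, a log2 fold change of 4.95 in Mannan-only against Sedentary (SE 0.47, edgeR adjusted p = 4.22e-06). Ifitm6 gave 57, 29.5, 19.5 and 23.6 CPM in Mannan-only, and 34.9, 17.3, 16.4 and 7.54 CPM in AREx. The summed neutrophil markers in the same order were 6269, 5922, 3048 and 4791 CPM, and 7250, 4551, 2858 and 1270 CPM, with the fewest in AREx replicate 4 as for Ifitm1 and Ifitm6. The part of neutrophils in these levels was not tested. Ifitm5, known from bone-forming cells, rose by 2.30 (SE 0.41), and 9 of 10 osteoblast markers rose as well, beside 26.3% of all genes tested.

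The PYHIN family rose in 7 of 9 members, fell in 1 (Ifi205), and did not pass in Ifi208, with a median of 1.22. Ifi204, the most abundant by CPM, gave 40.5, 36.2, 42.8 and 34.1 CPM in Sedentary, 87.6, 122, 80 and 97.6 in Mannan-only and 156, 87.5, 103 and 132 in AREx. The groups did not overlap with Sedentary, and its log2 fold change was 1.33 (SE 0.19, edgeR adjusted p = 8.27e-05). Ifi209 changed most of the 9 described, from 2.95, 1.66, 2.52 and 2.1 CPM to 13.6, 22.8, 10.3 and 13.9 CPM. It stood at 23.5, 13.3, 14.6 and 10 CPM in AREx, with no overlap between Sedentary and either mannan group. It had a log2 fold change of 2.70 (SE 0.32, edgeR adjusted p = 2.09e-05). Ifi206, tested but below the 1 CPM rule, had a larger one of 3.28 (SE 0.79, edgeR adjusted p = 0.0041), with at most 1.34 CPM in any library. The other risers were Ifi214 at 2.06 (SE 0.46), Ifi202b at 1.45 (SE 0.20), Ifi211 at 0.89 (SE 0.21), Ifi203 at 0.74 (SE 0.18) and Ifi207 at 0.56 (SE 0.21). The call on Ifi207 was lost without any of 5 libraries, Sedentary 1, 2 or 4 and Mannan-only 2 or 4. The other genes were Ifi30, a lysosomal reductase used in antigen presentation, Ifih1, the RNA sensor MDA5, Isg20, an RNA exonuclease, and Ifi35. Ifi30 gave 61.1, 54.5, 55.4 and 50.9 CPM in Sedentary, 197, 209, 162 and 179 in Mannan-only and 407, 180, 186 and 192 in AREx. Ifih1 gave 33.7, 27.9, 31.7 and 30.3 CPM in Sedentary, 46.6, 70.3, 42.5 and 69.3 in Mannan-only and 54.3, 52.6, 64.9 and 46.4 in AREx. Neither overlapped with Sedentary in a mannan group. Ifi30 rose by 1.75 (SE 0.24), Isg20 by 0.99 (SE 0.24) and Ifih1 by 0.89 (SE 0.17), while Ifi35 had 0.28 (SE 0.30). Ifi35 did not pass, although all its Mannan-only libraries were above all its Sedentary libraries.

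The 3 members that fell were led by Ifi27l2a, which encodes one of the small hydrophobic Ifi27-like proteins and lies at chr12:103408426-103409939 of GRCm39, minus strand. It gave 366, 325, 484 and 676 CPM in Sedentary, 74.8, 95.6, 68.1 and 90.8 in Mannan-only, and 351, 87.9, 96.9 and 166 in AREx. By RPKM it was the highest of all described members in Sedentary, at 864 ± 273. Every Mannan-only library was below every Sedentary library, with a log2 fold change of -2.49 (SE 0.41, edgeR adjusted p = 0.000277). Its neighbour Ifi27, at chr12:103400470-103406498 on the plus strand, gave 267, 198, 243 and 351 CPM, then 91.4, 86, 80.6 and 87.8, and 256, 85.4, 97 and 184 in AREx. Its log2 fold change was -1.61 (SE 0.31, edgeR adjusted p = 0.000826). Adipocyte markers fell in the same comparison, with a median of -3.78, and their part in the fall was not tested. Ifi205 fell less, from 42.8, 43.6, 58 and 35.4 CPM to 29.6, 27, 24.3 and 35.2 CPM, and stood at 38.6, 19.9, 17.7 and 29.3 CPM in AREx, a log2 fold change of -0.63 in Mannan-only against Sedentary (SE 0.24, edgeR adjusted p = 0.0403). The call on Ifi205 was lost without any of 6 libraries, Sedentary 1, 2 or 3 and Mannan-only 1, 2 or 3.

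**Figure D3:**
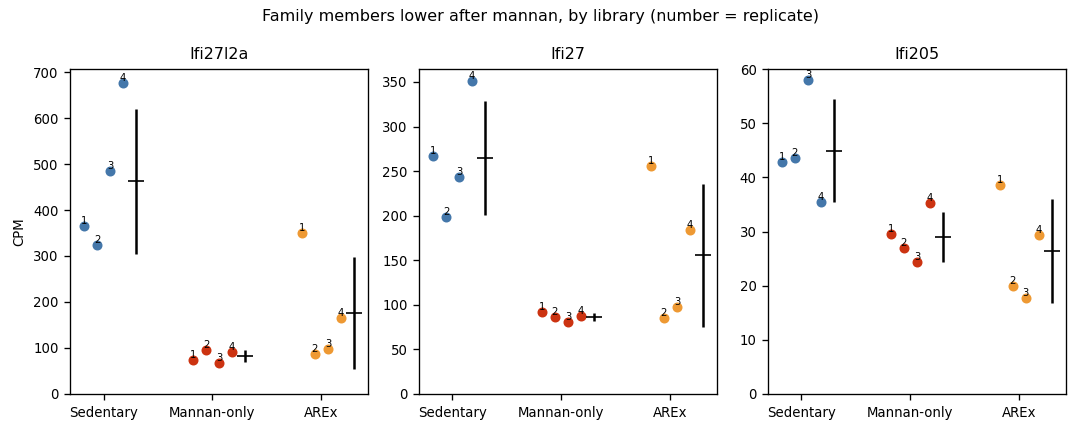
CPM of Ifi27l2a, Ifi27 and Ifi205 in the 12 libraries (points, numbered by replicate) by group, with the mean and SD of each group as a bar beside the points. The Mannan-only libraries of Ifi27l2a lie between 68.1 and 95.6 CPM, below all Sedentary libraries, and AREx replicate 1 lies at 351 CPM.

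The genes whose levels across the 12 libraries were most like Ifi27l2a, by Pearson's r of log2 CPM, were Ffar2 (r = 0.987), Abhd1, Mecr and Tmem120a (0.985 each), Dnajc15 and Fahd2a (0.983 each), and Marchf5, Pcsk4, Hsd17b10 and Ufd1 (0.982 each). All 10 were higher on average in Sedentary than in Mannan-only. All genes of a library share its depth and length pattern, and these differ between libraries, so the correlations are descriptions only.

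Within the Mannan-only group the families did not rank the libraries in the same way. Replicate 2 gave the highest level for 46 of the 61 members. The share of all genes tested that were highest in that library was not counted. Replicates 2 and 4 both stood above replicates 1 and 3 for 8 of 8 OAS, both MX, both of Isg15 and Usp18, both Ifi44, both of Rsad2 and Cmpk2, 5 of 6 IFIT and 7 of 9 PYHIN genes. The same held for 1 of 11 GBP, 1 of 7 IRG and 1 of 6 IFITM genes, and for 21.0% of all genes tested. Relative to the mean of replicates 1 and 3, replicate 4 stood at a median of 3.38 for Rsad2 and Cmpk2, 2.90 for MX, 2.49 for IFIT and 1.45 for OAS, but at 0.928 for IRG and 0.947 for GBP. Replicate 2 stood at 1.89 for IRG and 1.77 for GBP. It was above replicates 1 and 3 in the other families of this list as well, at 3.22 for Rsad2 and Cmpk2, 2.21 for IFIT, 1.97 for MX and 1.92 for OAS. Over all genes tested the medians were 0.991 for replicate 2 and 1.01 for replicate 4.

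Genes of the pathway outside the families were set beside these. Irf7, a factor of type I interferon induction, gave 63.2, 138, 59.9 and 106 CPM in Mannan-only replicates 1 to 4. Ifng gave 1.74, 4, 1.8 and 1.68 CPM there, with replicate 2 alone high, and its chemokine target Cxcl9, named after its values were seen, gave 89.4, 353, 163 and 94.6 CPM. With 4 libraries this is a description, with no test.

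Within AREx, replicate 1 gave the highest level for 43 of the 61 members, while replicate 2 gave the lowest for 30 and replicate 4 for 25. In AREx replicate 1, T and NK cell markers summed to 238 CPM and Irf7 stood at 198 CPM, against 93 to 120 CPM and 71.8 to 120 CPM in the other 3 libraries of the group. That library also had the largest excess of counts in short genes. Within Sedentary, replicate 1 was highest for 37 members. For AREx and Sedentary too, the shares of all genes tested that were highest or lowest in each library were not counted. These orders therefore cannot be told apart from library-wide differences. The part of cell makeup or gene length in these orders was not tested.

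**Figure D4:**
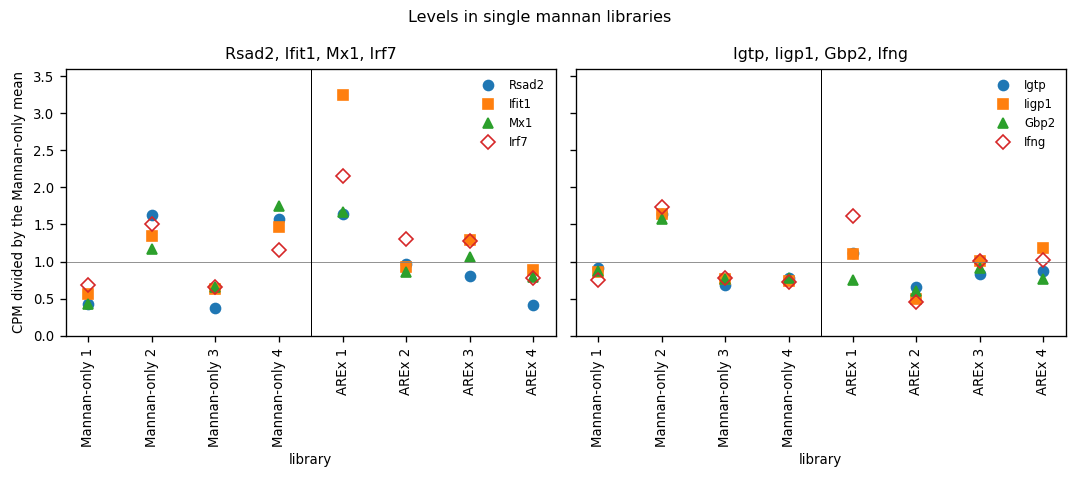
CPM of single genes in the 8 mannan libraries, each divided by its Mannan-only mean. Left, Rsad2, Ifit1, Mx1 and Irf7; right, Igtp, Iigp1, Gbp2 and Ifng, with Irf7 and Ifng as open symbols. Among Mannan-only libraries, replicates 2 and 4 lie above replicates 1 and 3 for the left genes, and replicate 2 is highest for the right genes.

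The interferon genes themselves were scarce. Of 21 ligands looked for, Ifng was the only one with enough counts to test. It had 3 counts over the Sedentary libraries and 115 over the Mannan-only libraries, a ratio of 43.9 (95% exact interval 14.7 to 216, counting error only). By library Ifng gave 0.0578, 0, 0 and 0.156 CPM in Sedentary and 3.72, 1.05, 2.31 and 2.34 CPM in AREx. Its fitted log2 fold change was 5.24 (SE 0.71, edgeR adjusted p = 6.01e-05). Ifnb1 and 15 other ligands had no read in any library, where a count of 0 allows up to 3 counts, or 0.171 to 0.272 CPM. Lower levels of their RNA were not detectable at this depth. Plasmacytoid dendritic cells are a known source of type I interferon. Of their 10 markers 4 rose (Ccr9, Klk1, Pacsin1 and Runx2), 2 fell (Siglech and Cd209d) and 4 did not pass with mannan, with a median log2 fold change of 0.42, beside 26.3% of all genes that rose and 25.2% that fell. Runx2 is also in the list of osteoblast markers, of which 9 of 10 rose, so its rise cannot be assigned to either cell type.

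Of 6 receptor genes, 5 rose. The share over all genes tested, to be set beside each list here, was 26.3% that rose and 25.2% that fell. Ifngr2 rose by 1.11 (SE 0.11), Ifnar1 from 77.8 ± 4.79 to 164 ± 8.24 CPM (n = 4 each) by 1.08 (SE 0.14), Il10rb by 0.64 (SE 0.10), and Ifnlr1, from low counts, by 3.94 (SE 0.44). Ifngr1 stood at 182 ± 20 against 186 ± 9.34 CPM and did not pass. Among signal transducers and factors, 15 of 16 rose, all but Irf3. Irf7 gave 16.3, 14.5, 14.6 and 13.1 CPM in Sedentary. In Mannan-only Irf7 rose by 2.65 (SE 0.33), Irf9 by 1.18 (SE 0.17) and the inhibitor Socs3 by 3.82 (SE 0.20). Of 16 nucleic acid sensors tested, 14 rose, such as Zbp1 by 3.40 (SE 0.33) and Sting1 by 1.96 (SE 0.14). Mavs, which relays the RNA sensors' signal, fell by 0.33 (SE 0.11), and Tlr3 did not pass. Of 37 other interferon-induced genes 33 rose, with Trim30a at 2.46 (SE 0.22), Samhd1, which breaks down nucleotides, at 2.47 (SE 0.26), and Slfn1 at 5.93 (SE 0.62). Of 20 interferon gamma targets outside the families 15 rose, such as the receptor Fcgr1 at 3.54 (SE 0.28), the class II regulator Ciita at 2.40 (SE 0.22) and the peptide transporter Tap1 at 2.29 (SE 0.24). Psmb10, Psme1, Psme2, B2m and Nampt did not pass. In AREx against Mannan-only 0 genes of these lists passed. Only 1 of all 14278 genes tested (0.007%) passed there, so the 0 is near the share over all genes.

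The effect of treadmill running after mannan was compared next. In AREx against Mannan-only none of the 61 members passed, by edgeR's quasi-likelihood test over the same 14278 genes, with 8 at an unadjusted p under 0.05. None passed by DESeq2's Wald test or by limma-voom either. Over all genes tested 0.007% rose, which was 1 gene, the clock factor Dbp, outside the families and named after its value was seen, and 19.9% had an unadjusted p under 0.05. The median log2 fold change of the 61 was 0.05, with 35 above 0 and 26 below. The groups separated for none of the 61, beside 3.05% of all genes higher and 3.71% lower.

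The smallest p among members belonged to Ifi27 (0.0163), Ifi27l2a (0.0168) and Gbp9 (0.0215), all with an edgeR adjusted p of 0.233. Gbp9 gave 47.3, 42.3, 33.4 and 33 CPM in Sedentary, 88.3, 148, 97.9 and 86.6 in Mannan-only and 41.9, 71, 98.6 and 45.7 in AREx, so that AREx overlapped both other groups. Gbp9 lies at the 65.5 percentile of length, and its lowest AREx values were in replicates 1 and 4. Those libraries held fewer counts in long genes, and the part of length in its values was not tested. Against Mannan-only Gbp9 had a log2 fold change of -0.71 (SE 0.27). Ifi27l2a had 1.09 (SE 0.39), and Ifi27 0.85 (SE 0.30). These 2 genes are short, at the 0.182 and 4 percentiles of length, and AREx replicates 1 and 4 held more counts in short genes. With the length trend removed, the values were 0.22 for Ifi27l2a and 0.28 for Ifi27, and without AREx replicates 1 and 4 they were 0.17 and 0.08. Adipocyte markers summed to 5260, 2050, 2392 and 6738 CPM in AREx replicates 1 to 4, high in replicates 1 and 4 as well, against 1764 to 3657 CPM in Mannan-only. All 12 had a log2 fold change above 0, with a median of 0.36, and none passed. Their part in the values of Ifi27l2a and Ifi27 was not tested. In the authors' deposited table, the same comparison had Ifi27l2a at 1.09 with an adjusted p of 0.0374, beside 2.14% of all genes with a test there that were called higher.

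The comparison of AREx with Sedentary shares the Sedentary libraries with the first one, so the values are given side by side only. In AREx against Sedentary, 51 of 61 members rose, 2 fell (Ifi27l2a and Ifi205) and 8 did not pass, beside 27.0% of all genes that rose and 23.7% that fell. The 51 include Ifi208 and the other genes that met the 1 CPM rule through their mannan libraries, except Ifitm10. The median of the 61 was 1.95, beside 0.05 over all genes. All AREx libraries were above all Sedentary libraries for 49 members, beside 22.7% of all genes, and below them for 0 members, beside 22.5%. Oas3 had 5.54 (SE 0.56), Ifitm1 4.82 (SE 0.47), Oas1g 4.61 (SE 0.50) and Ifi44 4.23 (SE 0.34). Ifi27l2a had -1.40 (SE 0.40, edgeR adjusted p = 0.0105), with -1.98 without AREx replicate 1. Without AREx replicates 2 and 4 it had -1.04 (edgeR adjusted p = 0.0858) and did not pass. Ifi27 had -0.77 (SE 0.30, edgeR adjusted p = 0.0509) and -1.54 without AREx replicates 1 and 4, where it passed. Ifi35 passed at 0.94 (SE 0.30), with 85.6 CPM in AREx replicate 1, but had 0.21 without AREx replicates 1 and 4 and did not pass.

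**Figure D5:**
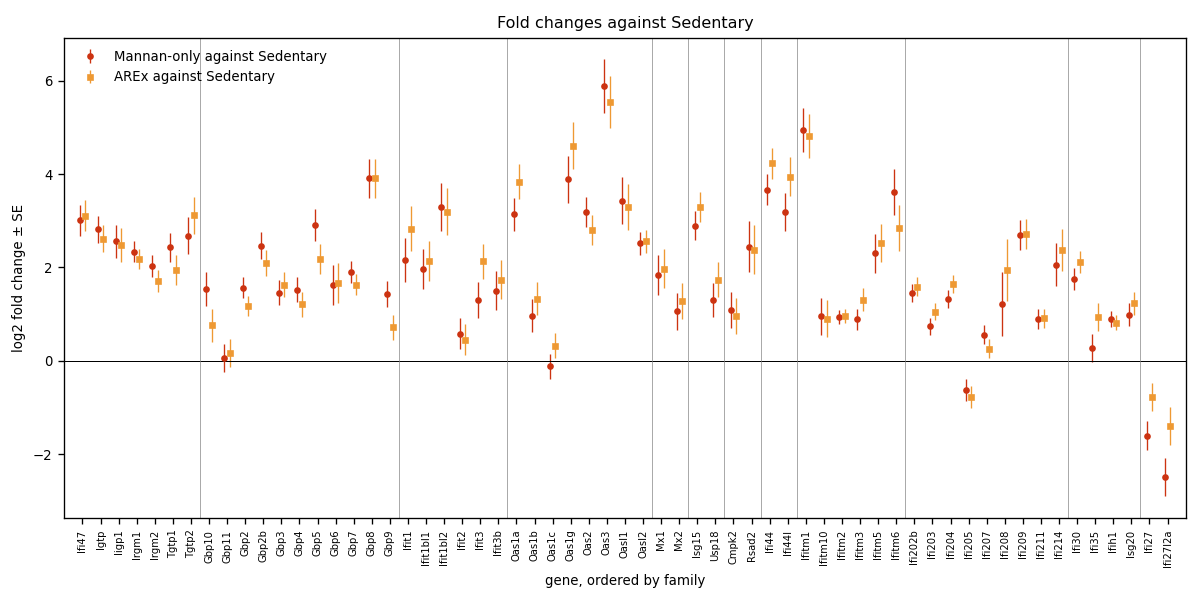
Log2 fold change ± SE of the 61 described genes against Sedentary, for Mannan-only (circles) and AREx (squares), ordered by family with grey lines between families. Both comparisons use the same Sedentary libraries. Oas3 is highest at 5.89 and 5.54, and Ifi205, Ifi27 and Ifi27l2a lie below 0.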

How the data were processed

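Total read counts per gene, RPKM, and the authors' log2 fold changes and adjusted p-values were deposited in 1 table of the 12 libraries. Per the submitters' processing notes, the build was GRCm39. Aligner, counter and strand setting: not given in the sources used here. RNeasy Plus Mini kits and NEBNext Ultra II libraries of poly(A) RNA were used, per the labels' protocols. The deposited counts per gene were whole numbers, not normalized, per the file headers. RPKM values, scaled by the authors to gene length and depth, were used for levels between genes. The authors' deposited log2 fold changes and the deposited p-values were read only as a second source. A deposited adjusted p of exactly 0, which also stands where there was no test, was not counted. The columns headed S were taken as Sedentary.

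Counts of 25655 genes were filtered with filterByExpr (minimum count 10), which left 14278, scaled by TMM, and fitted over all 12 libraries with 1 mean per group in edgeR 4.0.16 (R 4.3.3). Genes were tested with the robust quasi-likelihood F test, with Benjamini-Hochberg adjustment across the tested genes and a threshold of 0.05. SE is the size of the log2 fold change divided by the square root of F. CPM used TMM library sizes, and log2 CPM a prior count of 2. The script was tested on simulated data. Alternatives used limma 3.58.1 and DESeq2 1.42.0, other scalings, filters, left-out libraries, a replicate block and a length correction.

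The members and lists were chosen with earlier results of these data known. Values in every library are given, by rule, for the most abundant and the most changed member of each family, for those that fell, for the 3 with the smallest p in AREx against Mannan-only, and for Isg15, Usp18, Ifih1, Mx1 and Rsad2. Pathway genes outside the families are given partly as means or fold changes only. Intervals and floors cover counting error only. Protein features were not analysed here. Promoter motifs were searched in RefSeq sequences of GRCm38.p6.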

Additional observations from a re-analysis of the deposited data

Results flagged for a closer look

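For each of the 61 members and each group, a library was picked out when its gap to the nearest other library took up most of the group's range (Dixon's test at its 95% critical value for 4 samples). This picked out 17 of 183 groups (9.29%), where the nominal rate is 5% for independent, normally distributed values. Members vary together within a library, so the sets are not independent and the 2 shares cannot show an excess over chance. No explanation was tested.

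Mannan-only replicate 2 was far above its group in 6 genes, Gbp7 at 328 CPM, Gbp3 at 149 CPM, Gbp2b at 411 CPM, Gbp2 at 397 CPM, Ifi47 at 215 CPM and Iigp1 at 557 CPM, all of them GBP or IRG genes. AREx replicate 1 was far above its group in 5 genes, Ifi44l at 107 CPM, Oas1b at 16.6 CPM, Oas1g at 47.9 CPM, Oas1a at 121 CPM and Ifi30 at 407 CPM. AREx replicate 2 was far below its group for Gbp2b at 122 CPM and Gbp8 at 10.2 CPM. Sedentary replicate 1 was far above its group for Oasl1 at 7.28 CPM, Irgm1 at 35.1 CPM and Mx2 at 5.2 CPM, and Sedentary replicate 2 far below for Ifit1bl2 at 0.29 CPM.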

How the results depend on the processing

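In Mannan-only against Sedentary, 50 of the 55 called members kept their call under every alternative, and 46 of 53 did in AREx against Sedentary. With 1 library left out, 48 to 52 members rose in each comparison, 2 to 3 fell in the first and 1 to 3 in the second. The exceptions were Ifi207, Ifi205, Oas1b, Cmpk2 and Mx2 in the first, and Ifi208, Ifi205, Gbp9, Ifitm2, Ifi35, Ifi27l2a and Mx2 in the second. Some members gained a call. In the first, Ifi35 passed with only the 2 groups compared (edgeR adjusted p = 0.0237) and without AREx replicates 1 and 4 (edgeR adjusted p = 0.0456). Ifitm10 passed there without Sedentary replicate 2 (edgeR adjusted p = 0.00424) and with limma-voom (adjusted p = 0.00135). In the second, Gbp10, Ifitm10, Cmpk2 and Ifi27 passed under some alternatives. Without AREx replicates 2 and 4, 0 members fell in AREx against Sedentary. In AREx against Mannan-only no member passed under any alternative. Over all genes there, where 1 rose and 0 fell, 3 rose and 1 fell with the length trend removed, 3 and 2 with limma-voom, and 77 and 60 with DESeq2's Wald test. None rose (0) with only the 2 groups compared, without AREx replicates 1 and 4, or without AREx replicates 2 and 4, and with 1 library left out 0 to 15 rose and 0 to 12 fell, the most without AREx replicate 3. The log2 fold change of Gbp11 in Mannan-only against Sedentary turned to -0.02 with upper-quartile scaling and with the length trend removed, and ran from -0.12 to 0.39 with 1 library left out. In AREx against Sedentary it ran from -0.05 to 0.49 with 1 library left out and turned to -0.15 without AREx replicates 1 and 4, and Oas1c turned to -0.04 with limma-voom. The cause was not tested.

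The labels do not pair the replicate numbers, and deviations of same-numbered libraries correlated at -0.07 to 0.125. With the replicate block, 3724 genes rose in Mannan-only against Sedentary and 0 rose in AREx against Mannan-only. The block took the calls of Ifi207, Cmpk2 and Mx2 in the first comparison and of Ifi208 in AREx against Sedentary, and gave one to Ifi27 there (-0.85).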
